A study of Mus musculus with 18 samples.

Results

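The numbered zinc finger genes of the mouse, those whose symbol is Zfp followed by a number, were followed in retinas of RPE65-/- mice and of C57BL/6 controls. Of 336 such genes with a probe set of their own on the Affymetrix array, 283 had at least 1 probe set of clear signal and are the members described here. A probe set was clear where the median of its 18 deposited ratios was 0.99999 or more. Of several clear probe sets the one with the smallest mean SD within groups, on the log2 scale, stood for the gene. The members and their probe sets were thus chosen by measured values, the level and the spread within groups, so that the level and the small spread of the members are not results. The same choice was made for every gene of the array, which left 11274 of 18193 genes (62.0%) against 84.2% of the numbered zinc finger genes. The remaining 53 were read by dim probe sets alone and are not described. The numbering follows the symbol and not a common function or structure, and no protein sequences were used to check which members carry zinc fingers.

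Most genes named in this way encode proteins with C2H2 zinc fingers, small folds held by a zinc ion that read DNA in tandem. Many of these proteins also carry a KRAB domain, which recruits the co-repressor Trim28 and with it histone methylation, and which is known above all for silencing retroelements. KRAB zinc finger genes lie in clusters of young duplicates that differ between mouse strains, so that neighbours resemble each other in sequence and a probe set can bind the RNA of more than 1 of them. A smaller number of the members bind RNA or carry unrelated roles, among them the CCCH proteins of the Zfp36 family, which speed the decay of mRNA.

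Retina was taken from RPE65-/- mice at 2, 4 and 6 months and from C57BL/6 mice of the same ages, with 3 arrays per group, 1 retina each, and 18 arrays in all. RPE65 is the retinoid isomerase through which the pigment epithelium beneath the retina renews the chromophore of the visual pigments. The labels give no background strain for the knockouts and do not call the controls littermates, so that the loss of Rpe65 and any other difference between the 2 colonies cannot be told apart. Whether the retinas of a group came from separate animals rests on the submitters' description as biological replicates. The Rpe65 probe set was dim, with ratios of 0.0348 to 0.815 in knockouts and 0.609 to 46.7 in controls, where the lowest control overlapped the knockouts.

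The arrays differed in several ways beside genotype. Before scaling, arrays at 6 months had median signals of 32.8 to 45.8 and those of the younger ages 6.80 to 14.3, whatever the genotype. An effect of the oldest age and one of that gap cannot be told apart, whereas genotypes were compared at equal age. Read from Xist and Y-linked transcripts, 8 of 9 knockout retinas but 3 of 9 control retinas were male. Cone genes, 9 in number, averaged log2 ratios between -1.62 and -0.63 on the knockout arrays and between 0.38 and 0.85 on the control arrays, with 9 of 9 lower by the test used below. For 10 Müller glia genes the mean lay between 0.04 and 0.27 in knockouts and between -0.41 and 0.05 in controls. The mean of 16 lens genes ran from -4.42 to 5.38 in knockouts and from -2.86 to 2.67 in controls. The knockout retinas 2 and 3 at 2 months were its 2 highest among knockouts, and retina 2 at 1.62 lay within the control range. The log2 ratio of the 5' to the 3' actin probe set was lowest on control retinas 14 (4 months) and 11 (2 months). It was -1.42 and -1.33 there, against -1.09 to -0.76 on the other arrays. In whole retina, fewer cells of a type and less RNA per cell cannot be told apart, and the part of cell composition in the values below was not tested.

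Sequence at the promoters is shown for 3 genes of the chromosome 17 cluster on which the results turn, since their neighbours moved in opposite directions. Zfp994 and Zfp944, next to each other, were lower in knockout retinas, and Zfp983, in the same cluster, was higher. The windows, from RefSeq in build GRCm38.p6, hold 300 bases around the start of the gene, 5′ to 3′ along the gene, with each CG dinucleotide in capitals. They lie at chr17:22225565-22225864 (minus strand) for Zfp994, at chr17:22361351-22361650 (minus strand) for Zfp944 and at chr17:21650361-21650660 (plus strand) for Zfp983.
Zfp994: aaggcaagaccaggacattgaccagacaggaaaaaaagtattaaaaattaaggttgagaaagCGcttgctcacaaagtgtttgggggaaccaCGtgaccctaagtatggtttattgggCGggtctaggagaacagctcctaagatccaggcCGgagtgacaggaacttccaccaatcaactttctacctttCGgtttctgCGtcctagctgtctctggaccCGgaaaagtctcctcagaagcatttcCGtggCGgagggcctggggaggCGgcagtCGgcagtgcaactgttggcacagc
Zfp944: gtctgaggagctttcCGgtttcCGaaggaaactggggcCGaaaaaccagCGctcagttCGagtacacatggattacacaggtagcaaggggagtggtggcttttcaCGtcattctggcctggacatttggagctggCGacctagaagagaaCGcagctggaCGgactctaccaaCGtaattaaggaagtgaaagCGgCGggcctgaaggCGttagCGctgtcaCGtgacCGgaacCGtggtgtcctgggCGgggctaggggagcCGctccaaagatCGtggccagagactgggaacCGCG
Zfp983: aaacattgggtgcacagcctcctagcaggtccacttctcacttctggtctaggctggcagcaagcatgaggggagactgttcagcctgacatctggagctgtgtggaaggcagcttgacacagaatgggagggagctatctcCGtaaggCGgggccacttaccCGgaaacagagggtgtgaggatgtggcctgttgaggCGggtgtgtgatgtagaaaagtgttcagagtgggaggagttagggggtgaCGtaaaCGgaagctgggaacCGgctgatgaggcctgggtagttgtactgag
These windows hold 11 CG dinucleotides for Zfp994, 22 for Zfp944 and 7 for Zfp983. Of the members, 231 had a promoter in the RefSeq table, with a median of 16 CG and an interquartile range of 10 to 22. The median was 21 in the 9158 fitted genes with an entry, and 11 both in the 29 called members with an entry and in the 19 genes of the chromosome 17 cluster with one. The motif TATAAA, searched on both strands, was in 6.93% of members' windows and in 6.95% of those of all fitted genes. It was in 0 of the 29 windows of called members. A CG count describes the letters of the window and says nothing about methylation, which was not measured.

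Signals are given in units of the array's own median signal, and those of different probe sets are not relative expression. Just inside the threshold lay Zfp119a, Zfp493 and Zfp317, whose median signals were 0.800, 0.802 and 0.839 array medians. Just outside lay Zfp141 (0.791), Zfp458 (0.789) and Zfp879 (0.785).

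In knockout against control retina over the mean of the 3 ages, 15 members were higher and 21 lower, 36 of 283 (12.7%). Over all 11274 genes fitted the same test called 14%, with 7.04% higher and 6.97% lower. Called means an adjusted p under 0.05 in limma's moderated test, with Benjamini-Hochberg adjustment over these genes. Direction is that of the chosen probe set, also where another clear probe set passed the other way (Zfp945 and Zfp160). The share of members called was thus near that of all genes. The median log2 difference was -0.02 over the members and 0.01 over all genes. A difference above 0.5 in size on the log2 scale was seen in 15 members (5.3%) and in 7.15% of all genes, and one above 1 in 6 members (2.12%) and in 1.68% of all genes. Leaving out the 2 knockout arrays of highest lens signal left knockout retina 1 alone at 2 months, so that no count is given. Fitting and adjusting all probe sets of the array together, dim ones included, left 7 members higher and 10 lower (7.34% of all genes). With sex as a covariate it was 9 higher and 14 lower (10.1% of all genes called), and 19 of these 23 were among the 36. Arrays of 1 sex per age, males at 2 and 4 months and females at 6, left 1 control at 2 months and 1 knockout at 6 months. No count is given for them. Of the 36 calls 24 held in each of the 18 fits that left out 1 array. The other 12 held in 4 to 10 of them, and were those of Zfp160, Zfp24, Zfp36l2, Zfp521, Zfp712, Zfp748, Zfp770, Zfp930, Zfp939, Zfp94, Zfp953 and Zfp995.

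The 6 largest differences were all falls, of 1.22 to 1.64 on the log2 scale, and all 6 belonged to genes with a knockout level below the threshold of clear signal. For 9 members the median over the 9 knockout arrays was below the threshold, and for 0 members was the control median alone below it. Such genes passed the filter through their controls. Without these 9 members, 15 were called higher and 15 lower.

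In 10 members the 3 knockout arrays lay beyond the 3 controls at every age (3.53%, against 4.6% of all genes). The 7 that were lower (2.56% of all genes) were Zfp994, Zfp52, Zfp944, Zfp111, Zfp493, Zfp40 and Zfp451. The 3 that were higher (2.04% of all genes) were Zfp945, Zfp983 and Zfp266. For Zfp945 this holds on the chosen probe set, and its other clear probe set was lower in knockouts. Of the 7 lower ones 5, all but Zfp40 and Zfp451, were among the 9 members of low knockout median, and without these 5 there were 2 lower and 3 higher. Of the 10, 6 lie in 1 cluster of chromosome 17.

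**Figure D1:**
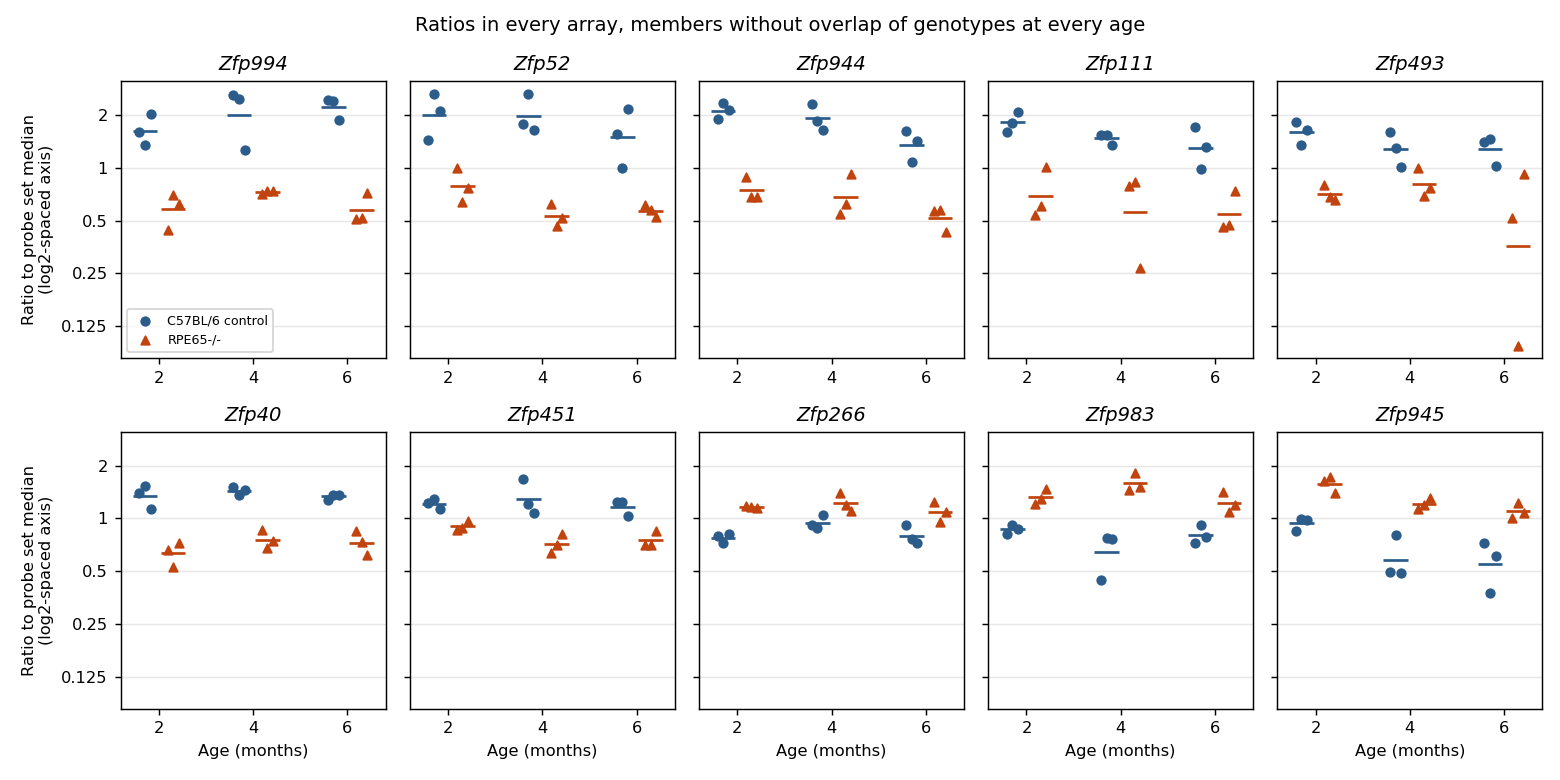
Ratio to the probe set's own median on a log2-spaced axis, against age in months, in each of the 18 arrays for the 10 members without overlap of genotypes at any age. Circles are C57BL/6 controls, triangles RPE65-/- retinas, and bars the means of log2 values of 3 arrays. Zfp994 lay at 0.444 to 0.736 in the 9 knockout arrays and at 1.26 to 2.60 in the 9 controls.

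The largest fall was that of Zfp994, a gene of the chromosome 17 cluster whose promoter is shown above. At 2 months its ratios were 1.34, 1.60 and 2.02 in controls and 0.444, 0.625 and 0.700 in knockouts. At 4 months they were 1.26, 2.48 and 2.60 against 0.707, 0.734 and 0.736, and at 6 months 1.89, 2.41 and 2.44 against 0.513, 0.516 and 0.721. Every knockout array lay below every control, and the control spread was the wider. The mean log2 difference was -1.64 ± 0.15 (SE, adjusted p = 1.03e-06 by limma), with -1.49, -1.47 and -1.95 at the 3 ages. On the scale log2(signal + 16), which draws low signals together, it was -0.93 and still passed.

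Its neighbour Zfp944 showed the same direction at a like size. At 2 months the ratios were 1.90, 2.13 and 2.34 in controls and 0.683, 0.685 and 0.886 in knockouts. At 4 months they were 1.65, 1.85 and 2.32 against 0.547, 0.619 and 0.926, and at 6 months 1.07, 1.43 and 1.62 against 0.430, 0.571 and 0.572. The genotypes did not overlap, and both were lowest at 6 months. Over the 3 ages the log2 difference averaged -1.46 ± 0.12 (SE, adjusted p = 5.08e-07 by limma). A second clear probe set of the gene gave -0.41 ± 0.19 and did not pass (adjusted p = 0.206 in the limma fit of all clear probe sets). A probe set that names both Zfp944 and Zfp942, left out of the members, gave -0.26 ± 0.13.

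Zfp52 lies in the same cluster, 10 places before Zfp994. Its control ratios were 1.44, 2.10 and 2.65 at 2 months, 1.64, 1.78 and 2.64 at 4 months, then 0.999, 1.57 and 2.18 at 6 months. The knockout ratios were 0.638, 0.763 and 1.001, then 0.466, 0.516 and 0.618, then 0.523, 0.577 and 0.612. The genotypes were apart within each age, though the lowest control at 6 months was level with the highest knockout at 2 months. Averaged over ages, the log2 difference was -1.55 ± 0.16 (SE, adjusted p = 5.22e-06 by limma).

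Zfp40 had a smaller and tighter fall. Controls gave 1.14, 1.40 and 1.53 at 2 months, 1.36, 1.45 and 1.51 at 4 months, then 1.28, 1.36 and 1.37 at 6 months. Knockouts gave 0.528, 0.664 and 0.726, then 0.675, 0.746 and 0.861, then 0.620, 0.735 and 0.850. No knockout array reached a control of any age. The mean log2 difference was -0.96 ± 0.09 (SE, adjusted p = 1.34e-06 by limma). Of its other clear probe sets 1 gave -0.87 ± 0.17 and passed, and the other gave 0.06 ± 0.17.

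These 4 genes were the members that passed at each of the 3 ages. Across the ages the falls were 1.35 to 1.90 on the log2 scale for Zfp52, 1.38 to 1.51 for Zfp944 and 0.87 to 1.08 for Zfp40.

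Against these falls, 2 genes of the same cluster were called higher on their chosen probe sets. For Zfp945 the other clear probe set gave a fall. Zfp983 had control ratios of 0.812, 0.874 and 0.915 at 2 months, 0.447, 0.760 and 0.777 at 4 months, then 0.721, 0.779 and 0.913 at 6 months. Its knockout ratios were 1.22, 1.29 and 1.47, then 1.46, 1.52 and 1.82, then 1.08, 1.19 and 1.42. Every knockout lay above every control. Over the 3 ages the log2 difference averaged 0.84 ± 0.11 (SE, adjusted p = 4.78e-05 by limma), and the other clear probe sets of the gene gave 0.59 ± 0.13, which passed, and 0.37 ± 0.18, which did not.

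Zfp945 is the member on which probe sets disagreed most among those called. On the probe set of smallest spread, controls gave 0.852, 0.986 and 0.993 at 2 months, 0.487, 0.497 and 0.810 at 4 months, then 0.376, 0.608 and 0.720 at 6 months. Knockouts gave 1.40, 1.64 and 1.73, then 1.13, 1.195 and 1.31, then 1.01, 1.08 and 1.22, all above the controls. The mean log2 difference there was 0.94 ± 0.13 (SE, adjusted p = 8.14e-05 by limma). On the other clear probe set the 9 knockouts gave 0.184 to 0.817 and the 9 controls 1.18 to 2.33, all below the controls. That difference was -1.77 ± 0.26 (SE, adjusted p = 0.000277 in the limma fit of all clear probe sets), so that no direction is given for the gene. The second probe set has an ID ending in _a_at, which marks probes that can bind several transcripts of a gene.

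**Figure D2:**
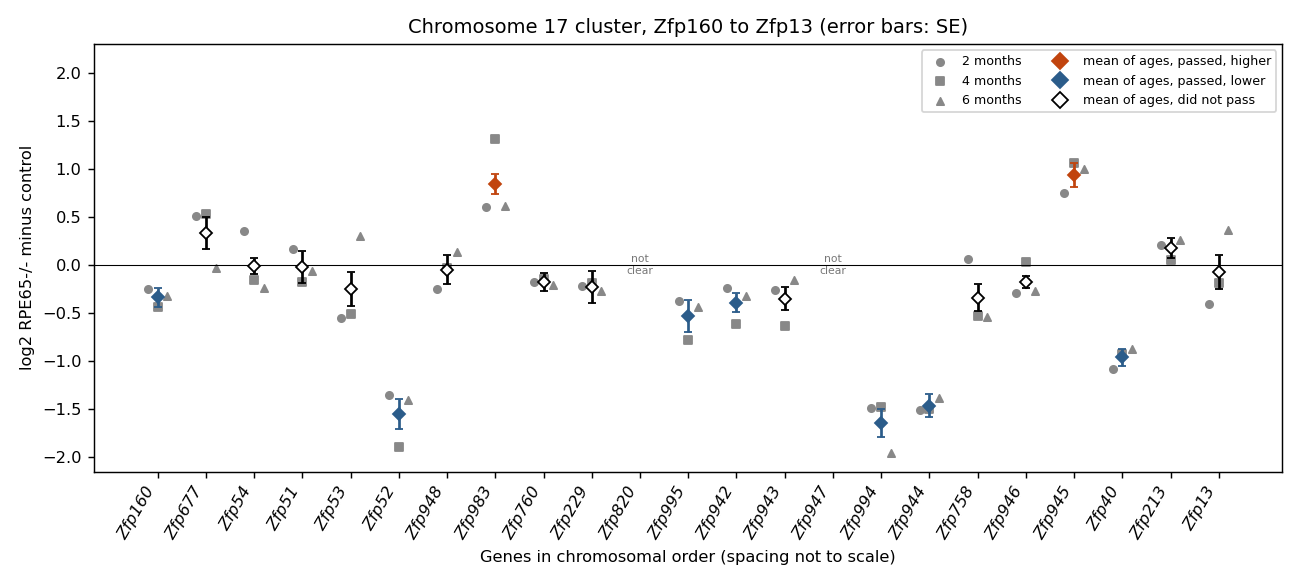
log2 difference RPE65-/- minus control for the 23 numbered zinc finger genes of the first cluster of chromosome 17, in chromosomal order. Diamonds are means of the 3 ages with SE, filled where the test was passed, and grey symbols are single ages. Zfp52, Zfp994, Zfp944 and Zfp40 lie at -0.96 or below, Zfp983 and Zfp945 at 0.84 or above, and the other 15 members between -0.53 and 0.33. 2 genes had no clear probe set.

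By position, numbered zinc finger genes of the RefSeq gene table were joined into a cluster where neighbours lay at most 1 Mb apart. Clusters with at least 3 members numbered 22 and held 153 members. Of these 16.3% were called, against 8.46% of the 130 members elsewhere and 14% of all genes fitted. All 9 members of low knockout median, which passed the filter through their controls, lie in these clusters, and 6 of them were called lower. The difference between clusters and elsewhere is thus not free of the filter. Without the first cluster of chromosome 17, 10.3% of the 262 other members were called.

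The first cluster of chromosome 17, from Zfp160 to Zfp13, held 21 members. On the chosen probe sets 2 were called higher and 7 lower (42.9%). The 2 were Zfp983 and Zfp945, and the 7 were Zfp160, Zfp52, Zfp995, Zfp942, Zfp994, Zfp944 and Zfp40. No direction is given for Zfp945 and Zfp160, whose other clear probe sets passed the other way. The median log2 difference of the cluster was -0.22, against -0.01 over the other members. At 2 months 4 of the 21 were lower and 0 higher, at 4 months 4 and 2, and at 6 months 4 and 1. In Zfp52, Zfp994 and Zfp944 the knockout median was below the threshold of clear signal. Without them 4 lower calls stand, that of Zfp160 included. With both highest-lens knockout arrays left out, knockout retina 1 stands alone at 2 months, and no count is given. The 9 called genes all lay below the median signal of all genes, so that a fit of the genes above it does not bear on them.

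The calls did not follow the order of the genes. Zfp51 and Zfp53, the 2 genes before Zfp52, had differences of -0.02 ± 0.16 and -0.25 ± 0.18 and did not pass. Zfp945, higher on 1 probe set and lower on the other, sits between Zfp946 (-0.17 ± 0.06, adjusted p = 0.080 by limma) and Zfp40. Zfp758, 1 gene before Zfp946, had -0.34 ± 0.14 (adjusted p = 0.122 by limma). Zfp677 at 0.33 ± 0.17 and Zfp213 at 0.17 ± 0.10 were the members above 0 beside Zfp983 and Zfp945.

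Smaller falls in the cluster rest on less. Zfp995 fell by 0.53 on the log2 scale (SE 0.17, adjusted p = 0.043 by limma), read by a probe set open to cross-hybridisation. Its second clear probe set gave -0.40 ± 0.22 and did not pass. Zfp942 fell by 0.39 (SE 0.10, adjusted p = 0.015 by limma). Zfp160 fell by 0.34 (SE 0.10, adjusted p = 0.027 by limma), while its second clear probe set gave 0.65 ± 0.17, which passed in the opposite direction, so that no direction is given for Zfp160 either.

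Chromosome 17 as a whole held 40 members, 2 higher and 8 lower (25%), and 17.9% of its 481 other genes were called. The next cluster on the chromosome, Zfp871 to Zfp414, had 0 of 12 members called and a median of 0.03. The last, Zfp119a to Zfp119b, had 0 of 3. Off chromosome 17, 10.7% of 243 members and 13.9% of other genes were called.

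**Figure D3:**
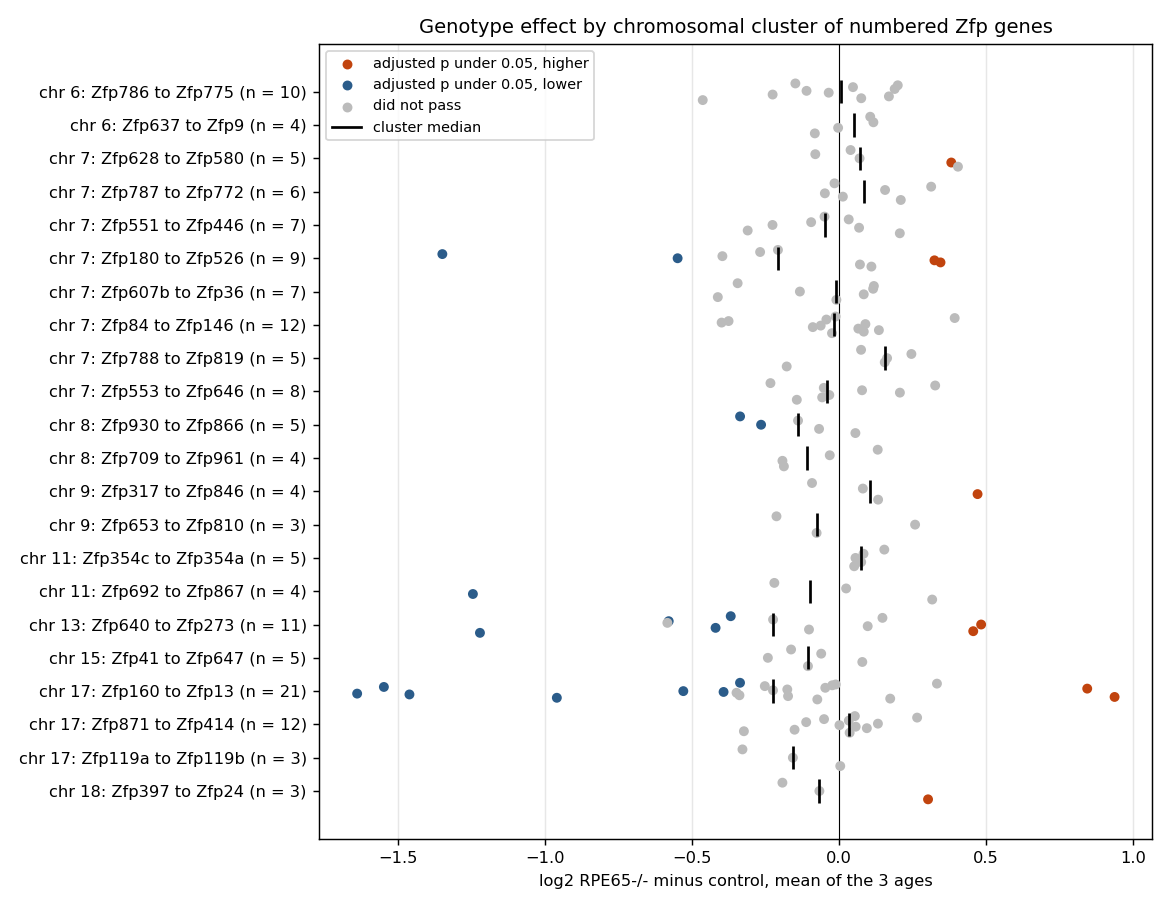
log2 difference RPE65-/- minus control over the mean of the 3 ages for each member, by chromosomal cluster of at least 3 members, with n the members of the cluster. Coloured points passed at an adjusted p under 0.05, grey points did not, and black bars are cluster medians. Points below -0.9 come from chromosomes 7, 11, 13 and 17.

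On chromosome 13 the cluster from Zfp640 to Zfp273 held 11 members, 2 higher and 4 lower, with a median of -0.22. That median was the same as in the first cluster of chromosome 17, and the called share was larger. Over the whole chromosome 33.3% of 18 members and 13.8% of 391 other genes were called, against 14% of all genes fitted. Zfp493 had the largest difference in the cluster. Its ratios were 1.36, 1.63 and 1.83 in controls and 0.655, 0.684 and 0.795 in knockouts at 2 months, 1.005, 1.29 and 1.60 against 0.687, 0.767 and 0.995 at 4 months, and 1.022, 1.41 and 1.45 against 0.0967, 0.514 and 0.924 at 6 months. The genotypes were apart at each age by a small margin at 4 and 6 months, and 1 knockout at 6 months was far below the rest. Averaged over ages, the log2 difference was -1.22 ± 0.31 (SE, adjusted p = 0.013 by limma), and -0.48 on the scale log2(signal + 16). Zfp493 lay just inside the threshold of clear signal, through its controls, and 0 of the 3 ages passed alone.

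Zfp953, Zfp748 and Zfp712 fell by 0.58, 0.42 and 0.37 on the log2 scale, each with an adjusted p of 0.049 by limma. Those 3 calls each held in 4 of 18 fits without 1 array. Zfp58 and Zfp729a rose by 0.48 ± 0.10 and 0.46 ± 0.11 (SE). The 2 further clear probe sets of Zfp729a gave 0.48 and 0.85 and passed as well. Zfp874b, at -0.58 ± 0.19, had the largest fall among members that did not pass (adjusted p = 0.057 by limma). It gave -0.97 on arrays of 1 sex per age, with 1 control at 2 months and 1 knockout at 6 months. Rsl1, which encodes a KRAB zinc finger protein without a number in its name and lies in the same cluster, fell by 0.71 (SE 0.15, adjusted p = 0.0046 by limma). Of the 5 genes fitted there that are no members, the other one called was Ptdss1, higher by 0.23.

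On chromosome 7 the cluster from Zfp180 to Zfp526 held 9 members, 2 higher and 2 lower. Over the whole chromosome 9.0% of members and 16.5% of other genes were called. Within the cluster Zfp111 fell furthest. Controls gave 1.61, 1.79 and 2.07 at 2 months, 1.35, 1.54 and 1.54 at 4 months, then 0.987, 1.31 and 1.70 at 6 months. Knockouts gave 0.535, 0.608 and 1.01, then 0.269, 0.786 and 0.834, then 0.462, 0.472 and 0.735. The genotypes were apart within each age, with 1 low knockout at 4 months. The mean log2 difference was -1.35 ± 0.21 (SE, adjusted p = 0.000304 by limma).

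In the same cluster Zfp93 fell by 0.55 ± 0.11, and Zfp61 and Zfp94 rose by 0.32 ± 0.08 and 0.35 ± 0.11 (SE). The call of Zfp94 held in 4 of 18 fits without 1 array, and those of Zfp93 and Zfp61 in all 18. The gene between Zfp111 and that trio with a clear probe set, Zfp109, had -0.40 ± 0.16 and did not pass. The other 7 clusters of chromosome 7 had 1 call among 50 members, Zfp784 at 0.38 ± 0.10. On chromosome 8 the cluster from Zfp930 to Zfp866 had 2 of 5 members lower, Zfp930 at -0.34 ± 0.11 and Zfp869 at -0.27 ± 0.07. Over that whole chromosome 9.09% of 22 members and 10.8% of 610 other genes were called. The second clear probe set of Zfp930 gave 0.00.

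Zfp39 was called lower on chromosome 11 through 1 age. At 2 months controls gave 0.993, 1.36 and 1.65 and knockouts 0.750, 0.897 and 1.01. At 4 months the ratios were 0.922, 1.39 and 1.44 against 0.719, 0.732 and 1.04, and at 6 months 1.55, 1.61 and 1.85 against 0.0794, 0.5004 and 0.542. The genotypes overlapped at 2 and 4 months and were far apart at 6. Over the 3 ages the log2 difference averaged -1.25 ± 0.29 (SE, adjusted p = 0.0086 by limma), with -0.57, -0.58 and -2.58 at the 3 ages. Its level was low, with a mean signal of 0.960 array medians. The knockout median of 0.664 was below the threshold of clear signal, so that Zfp39 passed the filter through its controls. In the stretch of its cluster 5 of the 13 fitted genes that are no members were called, against 14% of all genes fitted. Trim17, 2610507I01Rik, H2aw and Mrpl55 were lower, at -1.45, -1.52, -0.59 and -0.46, and Snap47 was higher at 0.29 on the log2 scale.

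Outside the clusters the falls were smaller. Zfp451, a SUMO ligase of the nucleus, had control ratios of 1.14, 1.22 and 1.29 at 2 months, 1.07, 1.21 and 1.68 at 4 months, then 1.03, 1.24 and 1.24 at 6 months. Knockouts gave 0.856, 0.886 and 0.970, then 0.633, 0.702 and 0.816, then 0.709, 0.710 and 0.846. The genotypes were apart at every age on this probe set. Its mean log2 difference was -0.64 ± 0.09 (SE, adjusted p = 0.000125 by limma), but the 4 further clear probe sets gave -0.41, 0.05, 0.15 and 0.15, and none of the 4 passed.

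Zfp597, whose human counterpart is imprinted, fell by 0.59 (SE 0.10, adjusted p = 0.000481 by limma). Its ratios were 0.695 to 1.002 in knockouts and 0.974 to 1.49 in controls, and its other clear probe sets gave -0.88, which passed, and -0.43. Zfp770 fell by 0.36 ± 0.12 (SE), with a further probe set at -0.09.

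Among the rises outside chromosome 17, Zfp266 was the one without overlap at any age. Controls gave 0.728, 0.792 and 0.811 at 2 months, 0.883, 0.912 and 1.04 at 4 months, then 0.722, 0.762 and 0.918 at 6 months. Knockouts gave 1.15, 1.17 and 1.18, then 1.10, 1.19 and 1.40, then 0.955, 1.09 and 1.24. The rise was clearest at 2 months, when both genotypes varied least. Averaged over ages, the log2 difference was 0.47 ± 0.07 (SE, adjusted p = 0.000406 by limma). Its 3 further clear probe sets gave 0.37, 0.08 and -0.11 and did not pass.

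Zfp280c, which is X-linked, rose by 0.44 ± 0.09 (SE) and by 0.41 with sex as a covariate. Zfp286 rose by 0.45 ± 0.08, Zfp157 by 0.39 ± 0.08 and Zfp939 by 0.48 ± 0.14. Zfp939 was lower at 2 months (-0.31) and higher at 4 and 6 months (0.70 and 1.05). Zfp655 at 0.30 ± 0.08 and Zfp24 at 0.30 ± 0.09 completed the list with Zfp521 below. The further clear probe sets of Zfp655 gave 0.17 and 0.06 and did not pass. The call of Zfp24 held in 6 of 18 fits without 1 array, and its 5 further clear probe sets ran from -0.23 to 0.44, the last of which passed. Among the members of largest rise that did not pass were Zfp991 at 0.41, Zfp580 at 0.41 ± 0.17 and Zfp30 at 0.39. Zfp775 at -0.46 and Zfp850 at -0.41 were the largest falls without a call after Zfp874b.

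**Figure D4:**
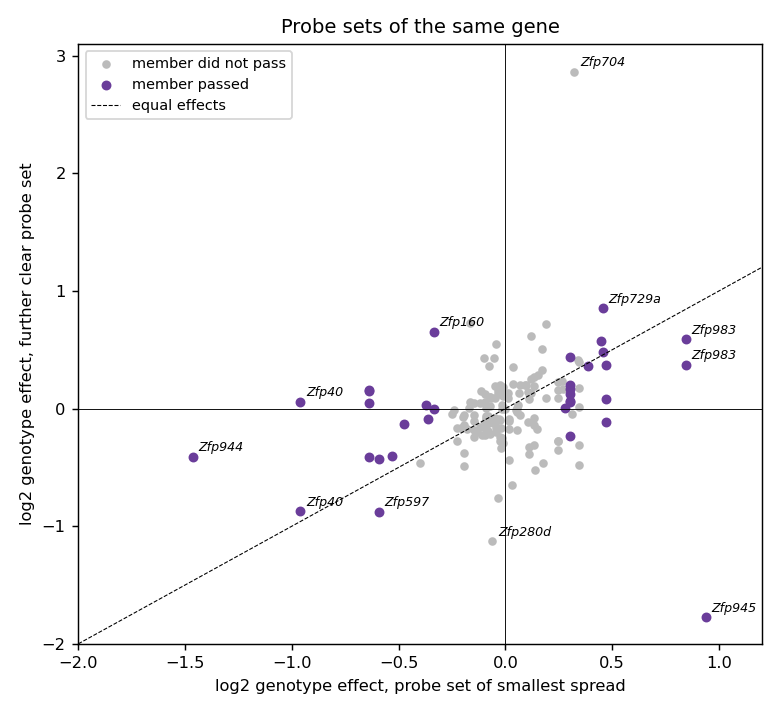
log2 genotype effect over the mean of the 3 ages on each further clear probe set of a member (vertical axis) against the effect on the probe set of smallest spread (horizontal axis). Purple points belong to members that passed, grey points to members that did not, and the dashed line marks equal effects. Zfp945 lies at 0.94 and -1.77, and Zfp704 at 0.32 and 2.86.

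How far probe sets of a gene gave the same answer was read from the 104 members with several clear probe sets. All clear probe sets of single genes, 20630 in number, were fitted together, and 11.1% of them passed. Of the 36 called members 19 had a further clear probe set, 33 in all. Of the 33, 24 had the sign of the chosen probe set and 9 passed, 7 of these in the same direction and those of Zfp160 and Zfp945 in the other. Of 131 further probe sets of members not called, 79 had the same sign and 11 passed. The other 17 called members, among them Zfp994, Zfp52, Zfp111, Zfp39 and Zfp493, were read by 1 clear probe set. Probe sets of a gene share the arrays and the RNA, and are not replicates.

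Both largest differences on the further probe sets of members not called, chosen after the values were seen, were those of Zfp704 and Zfp280d. On the second probe set of Zfp704 the controls gave 0.0816, 0.0987 and 0.126 at 2 months, 0.179, 0.187 and 0.415 at 4 months, then 0.0395, 1.003 and 1.28 at 6 months, and the 9 knockouts 0.749 to 2.50. The controls were low at 2 and 4 months, and 2 of the 3 at 6 months were level with knockouts. The median over the controls was 0.194 array medians, below the threshold of clear signal, and over the knockouts 1.77, so that the probe set passed through its knockouts. The fitted difference of 2.86 ± 0.50 (SE) thus rests on dim control signals, and the chosen probe set gave 0.32 ± 0.12. On the second probe set of Zfp280d the 9 knockouts gave 0.432 to 0.862 and the 9 controls 1.14 to 1.34, a difference of -1.13 ± 0.11, against -0.06 ± 0.09 on the chosen one.

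At single ages 10 members were called at 2 months (3.53%; 3.98% of all genes), 11 at 4 months (3.89%; 4.21%) and 11 at 6 months (3.89%; 3.12%). The split was 2 higher and 8 lower at 2 months, where 1.47% and 2.51% of all genes were called. At 4 months it was 4 and 7 (2.4% and 1.81% of all genes), and at 6 months again 4 and 7 (1.28% and 1.84%). At 1 or more ages 19 members were called. Among members that passed at the age, the largest rises at 2 months were Zfp286 (0.64) and Zfp266 (0.59). At 4 months they were Zfp983 (1.31), Zfp945 (1.06) and Zfp157 (0.59). At 6 months they were Zfp939 (1.05), Zfp945 (1.004) and Zfp410 (0.57 ± 0.15). Zfp945 rose on its chosen probe set alone. The largest falls among members that passed at the age were those of Zfp944, Zfp994 and Zfp111 at 2 months. At 4 months they were those of Zfp52, Zfp944 and Zfp994, and at 6 months those of Zfp39, Zfp994 and Zfp52. Members that did not pass at an age could have larger values, such as Zfp185 at 2 months (0.98) and Zfp493 at 6 months (-1.84). Single arrays mattered at this n. The count at 2 months was 4 without knockout retina 2 or control retina 11, 5 without control retina 9 and 6 without knockout retina 1. The count at 4 months was 7 without knockout retina 33, and that at 6 months was 5 without knockout retina 5 and 7 without knockout retina 4 or control retina 2.

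A difference of the genotype effect between ages was called in 0 members by limma's F-test, with 15 at an unadjusted p under 0.05, and in 0.0177% of all genes. The smallest p belonged to Zfp939 (-0.31, 0.70 and 1.05 at the 3 ages, adjusted p = 0.616 by limma) and to Zfp36 (-0.25, -0.47 and 0.70, adjusted p = 0.677). The controls of Zfp939 gave 1.21, 1.33 and 1.49 at 2 months and 0.264, 0.538 and 0.695 at 6 months, and its knockouts 0.967, 1.13 and 1.14, then 0.884, 0.978 and 1.022. Its controls were lower at the later age, and its knockouts less so.

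Age within a genotype was compared as 6 against 2 months, where it cannot be told apart from the signal of the arrays. In controls 6 members were called (2.12%; 1.98% of all genes), 1 higher and 5 lower at 6 months (0.869% and 1.11% of all genes). In knockouts 8 were called (2.83%; 1.41% of all genes), 2 higher and 6 lower (0.887% and 0.523%). Zfp942 and Zfp654 were lower at 6 months in both genotypes, by 0.79 and 0.66 in controls and by 0.87 and 0.70 in knockouts on the log2 scale. Below 0 lay 65.0% of members in controls and 63.2% in knockouts, against 50.0% and 46.0% of all genes. From 2 to 4 months 0 members were called by limma in either genotype, with 17 in controls and 32 in knockouts at an unadjusted p under 0.05. Of all genes 0.0177% and 0.355% were called, in controls 0.00887% in each direction and in knockouts 0.284% higher and 0.071% lower. Leaving out 1 array moved the counts for 6 against 2 months to between 1 and 7 in controls and between 0 and 9 in knockouts, as given with the arrays concerned below.

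By known role, 50 members were on lists of named functions, of which 4 were called (8%; 14% of all genes and 12.7% of all members). Of 3 CCCH proteins, which bind AU-rich elements of mRNA, Zfp36l2 was lower, with ratios of 0.737 to 1.16 in knockouts and 0.779 to 1.94 in controls and a difference of -0.37 ± 0.11 (SE, adjusted p = 0.039 by limma). Its 4-month controls included the value of 1.94, and the groups overlapped. Without the 2 control arrays of lowest 5' to 3' actin ratio the difference was -0.25 and did not pass. The second clear probe set of Zfp36l2 gave 0.03 ± 0.24. Zfp36l1 had 0.11 ± 0.10 and Zfp36 -0.01 ± 0.14.

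Of 11 members that bind or process RNA, Zfp385b was lower, at -0.48 ± 0.08 (SE, adjusted p = 0.00098 by limma). Its ratios at 2 months were 1.25, 1.305 and 1.496 in controls and 0.866, 0.943 and 0.956 in knockouts, at 4 months 1.22, 1.31 and 1.57 against 0.773, 0.903 and 1.04, and at 6 months 0.852, 1.05 and 1.15 against 0.748, 0.855 and 0.876. The groups were apart at 2 and 4 months and overlapped at 6. Its second clear probe set gave -0.13 ± 0.10. Its relatives Zfp385a and Zfp385c had -0.25 ± 0.15 and -0.08 ± 0.23.

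Of 12 members tied to neural development or neurons Zfp521, which acts in neural differentiation, was higher at 0.28 ± 0.09 (SE, adjusted p = 0.042 by limma). Its second clear probe set gave 0.01 ± 0.16, and the call held in 6 of 18 fits without 1 array. Zfp423, its relative, had 0.32 ± 0.22 and Zfp503 -0.11 ± 0.16. Of 5 members that silence imprinted genes or retroelements 0 were called, with Zfp809, which represses murine leukemia proviruses, at 0.26 ± 0.10 and Zfp445 at -0.04 ± 0.06. Of 19 members with other roles Zfp266 was called.

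The partners through which KRAB proteins repress were given by a list of 31 genes, of which 28 were fitted. Among them 1 was higher and 1 lower (7.14%, against 14% of all genes), with a median of 0.04 against 0.01 over all genes. Chd4, the helicase of the NuRD complex, rose by 0.32 ± 0.09, and Gatad2a, another NuRD subunit, fell by 0.27 ± 0.09 (SE, adjusted p = 0.019 and 0.049 by limma). Trim28 had 0.15 ± 0.07 and the histone methyltransferase Setdb1 0.07 ± 0.09, and neither passed.

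By level, 3 of the 95 dimmest members by mean signal were higher and 10 lower. Without the 9 members of low knockout median it was 3 and 4 of 86. Of the next 94 it was 8 and 4, and of the 94 brightest 4 and 7. Over all genes in the same signal ranges the shares were 5.17% higher and 5.92% lower, 8.19% and 5.61%, and 7.48% and 7.81%. Whether direction depends on level was not tested. The median size of the log2 difference was 0.16, 0.14 and 0.11 in these 3 classes, and the median SE 0.15, 0.11 and 0.09.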

How the data were processed

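RNA of 18 mouse retinas, 3 per group, was measured on Affymetrix expression arrays. The authors deposited 1 table of ratios for 45101 probe sets on a linear scale, and the submitters' processing notes name RMA for 18 samples and GCOS for 16, with no version or order of steps. From the values themselves, each array's signals were whole steps of 0.1 before scaling (within 0.02 of a step, for 100% of values). The deposited ratio was then the scaled signal over the probe set's median over arrays, or over 1 fixed divisor of 0.797 array medians where that median was lower. A clear probe set is one at or above that divisor. No read depth applies, and the number of arrays limits the precision.

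Genes were named from the platform annotation. The 932 probe sets that name several genes were left out, 13 clear ones with a numbered zinc finger gene among them. The same rule (clear, then smallest spread) chose 1 probe set per gene for all 11274 genes. Choosing small spreads lowers the error that tests use, in members and in the background. The members had 447 clear probe sets for 283 genes and all genes 20630 for 11274, so that the choice was not equally wide. Its part in the shares called was not tested.

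Log2 ratios were fitted with limma 3.58.1 in R 4.3.3, with a mean for each of the 6 groups and 12 residual degrees of freedom. The moderated tests were two-sided, and their p-values were adjusted by Benjamini-Hochberg across the fitted genes, to a threshold of 0.05. Errors after ± are SEs of this fit, and n is 3 arrays per group. The fit was tested on simulated data. No 2 arrays held the same values. Positions and clusters came from RefSeq gene order in build GRCm38.p6, while the build behind the probe design is not given in the sources used here. The members, gene lists and tests were chosen with earlier results of these data known. Named members are those called over the mean of ages (up to 15 in each direction, those without overlap first), the 3 largest in each direction at each age, the 2 of smallest p for a difference between ages, the 3 largest in each direction that did not pass, and members of clusters with at least 2 calls and of the role lists. Role lists covered CCCH proteins, RNA binding, imprint and retroelement silencing, neural development, other roles, and KRAB co-repressors, and marker lists covered retinal, pigment epithelium, lens and microglia genes. Of pigment epithelium genes 0 of 12 were called, of lens 0 of 11, of microglia 0 of 5, of rod 7 of 10 lower, of bipolar 2 of 7 higher, of amacrine, horizontal and ganglion 4 of 11 higher, and of Müller glia 5 of 10 higher. Alternatives changed the probe set, the scaling, the filter, the prior, the array weights, covariates and the arrays used. Tables and plots were made with pandas 2.3.3 and matplotlib 3.10.9 under Python 3.11.15.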

Additional observations from a re-analysis of the deposited data

Results flagged for a closer look

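For Zfp939 every knockout array lay below every control at 2 months and above every control at 4 and at 6 months. The knockout effect at 6 months exceeded that at 2 months by 1.37 on the log2 scale, and limma's F-test of the difference between ages did not pass after adjustment (adjusted p = 0.616).

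For Zfp12 every knockout array lay below every control at 2 months (0.820, 0.946 and 0.949 against 1.005, 1.01 and 1.05) and above every control at 4 months (1.10, 1.15 and 1.41 against 0.798, 0.833 and 0.898). At 6 months the genotypes overlapped. The effect at 4 months exceeded that at 2 months by 0.70 on the log2 scale, with an adjusted p of 0.695 by limma's F-test.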

How the results depend on the processing

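No paired analysis was possible because knockout and control arrays of 1 age share no retina number in the labels. Of members named over the mean of ages, Zfp111, Zfp280c, Zfp385b, Zfp40, Zfp52, Zfp597, Zfp93, Zfp983 and Zfp994 were called with the same sign under each alternative that fitted them, leaving out of single arrays aside. The sign turned for Zfp160 (0.16 with the mean of all clear probe sets), for Zfp451 (0.15 with the brightest clear probe set) and for Zfp945 with the mean of all clear probe sets (-0.42 over the mean of ages, -0.51 at 4 months and -0.38 at 6 months). These alternatives differ only in the probe sets read. The cause of the other changes was not tested.

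Members called higher (15) and lower (21) over the mean of ages were 7 and 10 with all probe sets in the fit. Among genes above the median signal, which fits 87 members, they were 4 and 7. Of all genes fitted 14% were called in the main fit, and 7.34% and 19.4% in these alternatives in turn. The higher count was 9 with a sex covariate, and the lower count 13 without the 2 control arrays of low 5' to 3' actin ratio. Arrays of 1 sex per age (added once the data had been seen) leave 1 array in a group. So does the fit without the 2 knockout arrays of high lens signal, and no counts are given for either. At 2 months (10) the count was 4 with all probe sets, 3 among the brighter genes and 5 without the arrays of low actin ratio. At 4 months (11) it was 7 with the brightest probe set, 6 with all probe sets and 3 among the brighter genes. It was 5 with only the arrays of the age, 7 with the lens covariate and 7 without the arrays of low actin ratio. At 6 months (11) it was 7 with the brightest probe set, 4 with all probe sets and 2 among the brighter genes. It was 21 with array weights, 6 with only the arrays of the age, 6 with the sex covariate and 7 with the lens covariate. The count of the first chromosome 17 cluster (9) was 1 among the brighter genes, where 4 of its 21 members and 0 of the 9 called were fitted and the 1 was Zfp943, and 9 with gaps of 0.5 or 2 Mb.

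For 6 against 2 months in controls (6) the count was 3 with the mean of all clear probe sets and 0 with all probe sets. It was 2 among the brighter genes, 2 with the trended prior, 14 with array weights and 2 with the sex covariate. With the pigment epithelium covariate it was 0, and without the arrays of low actin ratio 2. In knockouts (8) it was 4 with the brightest probe set, 3 with the mean of probe sets and 0 with all probe sets. Without probe sets whose ID ends in _s_at, _x_at or _a_at it was 2. It was 17 with quantile normalization, 3 with the trended prior and 19 with array weights. With the sex, lens and pigment epithelium covariates in turn it was 3, 2 and 0. For 4 against 2 months (0) it was 2 in knockouts with array weights. The share of all genes called was taken in these alternatives over the mean of ages alone. There it was 15.4% with array weights and 17.9% with quantile normalization. Whether the counts at single ages and between ages moved apart from those of all genes was not tested.

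Leaving out 1 array gave 11 to 16 higher and 14 to 27 lower over the mean of ages, 4 to 12 at 2 months, 7 to 12 at 4 months, 5 to 12 at 6 months, 7 to 11 in the chromosome 17 cluster and 0 to 0 for the difference between ages. For 6 against 2 months it gave 1 to 7 in controls, with 1 without control retina 9 or 11 at 2 months or retina 2 or 3 at 6 months. In knockouts it gave 0 to 9, with 0 without knockout retina 1 at 2 months or 5 at 6 months. It gave 1 without knockout retina 2 or 3 at 2 months, 2 without knockout retina 4 or 6 at 6 months, 4 without knockout retina 31 and control retinas 9 (2 months) or 3 (6 months), and 5 without control retina 11. For 4 against 2 months it gave 0 to 0 in controls and 0 to 1 in knockouts.

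Low signals limit the sizes of the falls: with log2(signal + 16) those of Zfp994, Zfp52 and Zfp944 were -0.93, -0.92 and -0.86, and that of Zfp39 -0.51.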
